A study of Mus musculus with 2 samples.

Results

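The insulin-like growth factor (IGF) system was examined through 10 genes: the ligands Igf1 and Igf2, the receptors Igf1r, Igf2r and Insr, the adaptors Irs1 and Irs2, and the binding proteins Igfbp3, Igfbp4 and Igfbp5. A gene was given every peak whose summit lay within its RefSeq span, introns included. The table lists 21900 protein-coding genes. These 10 held 55 of the 21192 peaks in the deposited list (0.260%). The peaks come from acRIP-seq, in which RNA fragments that carry N4-acetylcytidine (ac4C, cytidine with an acetyl group) are pulled down with an antibody. PolyA RNA of whole uterus, taken from wild-type mice at gestational day 4, gave 1 library of the ac4C immunoprecipitation and 1 of the input control. The labels give no strain, age or number of animals. With 1 library in each group no value has a replicate check, and no test between groups was made.

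In this system IGF1 and IGF2 bind the receptor tyrosine kinase IGF1R, and insulin binds its close relative INSR. Both kinases phosphorylate the adaptors IRS1 and IRS2, which recruit PI3K and so feed Akt and mTOR. IGF2R has no kinase; it takes up IGF2 for breakdown and carries lysosomal enzymes that bear mannose 6-phosphate. The IGFBP proteins hold the ligands outside the cell and set how much reaches a receptor. In the mouse uterus Igf1 is known as an estrogen-induced gene, made mainly in the stroma, whose product promotes growth of the epithelium.

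Peaks touched the region around a listed transcription start in 4 of the 9 members matched in the RefSeq start table (build GRCm38.p6). Among the 5351 protein-coding genes with a peak and a listed start, 11.9% had such a region touched. The number of peaks per gene was not taken into account in this share. Insr was not matched in the start table. The table holds windows from 250 bases before to 50 bases after each start, and the members had 12 such windows. The sequences below are those windows' parts at the peaks, 5′ to 3′ on the gene's strand, with the bases inside a peak in capitals. The first pair is the 250 bases before the start of Igf1r (chr7:67952007-67952256, plus strand) and of Igf2r (chr17:12769707-12769956, minus strand), shown because a peak ran past the listed start there.
Igf1r: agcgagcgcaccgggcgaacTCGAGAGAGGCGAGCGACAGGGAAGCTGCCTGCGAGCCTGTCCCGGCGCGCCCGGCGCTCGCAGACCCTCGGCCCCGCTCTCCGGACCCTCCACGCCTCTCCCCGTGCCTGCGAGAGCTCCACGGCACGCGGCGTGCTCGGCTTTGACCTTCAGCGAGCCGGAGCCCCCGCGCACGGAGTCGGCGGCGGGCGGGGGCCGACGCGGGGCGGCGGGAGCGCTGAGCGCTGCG
Igf2r: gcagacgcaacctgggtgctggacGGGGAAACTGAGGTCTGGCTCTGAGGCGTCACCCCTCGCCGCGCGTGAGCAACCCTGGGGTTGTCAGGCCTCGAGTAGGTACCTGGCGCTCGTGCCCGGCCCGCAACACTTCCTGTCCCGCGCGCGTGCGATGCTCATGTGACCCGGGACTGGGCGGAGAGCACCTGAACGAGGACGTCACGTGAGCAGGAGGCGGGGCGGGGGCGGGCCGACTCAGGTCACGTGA
The second pair is the stretch from base 21 to base 50 after the start of Igfbp4 (chr11:99041264-99041293, plus strand) and of Igfbp3 (chr11:7213874-7213903, minus strand), shown because a peak began close to the start.
Igfbp4: cccgccGCCTGCTGGGCCGGCCGAGGATGC
Igfbp3: GACTGGGCGCTGAGGACCTGCTTGCTCGCT
In Igf1r 230 of the 250 upstream bases lay in the peak, and in Igf2r 226 did. The Igf1r stretch was 38.8% cytidine and the Igf2r stretch 30.8%, beside a median of 25.6% over the 32851 windows of the table. Both stretches lie before the listed start, so they are outside the listed transcripts. The peak over the Igf2r stretch had its summit outside the Igf2r span, in that of Airn. Airn is a non-coding RNA gene of the opposite strand, and the cytidine share on that strand was not computed. The first 50 bases of Igfbp4 were 50% cytidine and those of Igfbp3 26%, beside a median of 26%. The repeat CNNCNNCNNCNNCNN, cytidines with 2 bases between them, was searched for on both strands, counting overlapping matches. On the transcript strand it had 9 matches in the window of Igfbp4, 5 in that of Igfbp3 and 0 in those of Igf1r and Igf2r. On the other strand the matches were 7, 0, 5 and 4 in the same order. These counts cover whole windows, of which 24 bases in Igfbp4 and 49 in Igfbp3 lay in a peak. Windows that no peak touched also held the repeat on the transcript strand. It had 5 matches in that of Irs2, 3 in those of Irs1 and Igfbp5 and 0 in that of Igf1. The Igf2 windows had 1, 8, 0 and 0. On the other strand these untouched windows had 6 matches in Irs2, 16 in Irs1, 0 in Igfbp5 and 3 in Igf1. Those of Igf2 had 7, 0, 0 and 0. On the transcript strand, 7 of the 12 member windows held it, and 41.2% of all windows did. Of all windows, 43.9% held it on the other strand. On either strand, 10 of the 12 member windows and 63.2% of all windows held it. The summits of these peaks lay outside the printed stretches, except that of the Igf2r window, described below.

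Every member held at least 2 peaks. Of all protein-coding genes, 30.6% held 1 or more and 17.9% held 2 or more. Among the 14272 genes at least as long as the shortest member (9413 bp) the share with 2 or more was 22.7%. Transcript abundance was not matched in these shares. The members were also chosen with earlier results of these data known, so the contrast is not independent of that choice. The number of peaks ran from 10 in Igf1r, 8 in Igf1 and in Igf2r, 7 in Igfbp5, 6 in Igfbp4 and 5 in Insr down to 4 in Irs1, 3 in Irs2 and 2 in Igf2 and in Igfbp3. The median was 5.5 peaks a gene, beside 2 over all genes with a peak. The order changed with length. Per 10 kb of gene span, Igfbp4 had 4.74 peaks, Igfbp5 had 4.17 and Igfbp3 had 2.12, while Igf1r had 0.355 and Insr 0.388. The median over all genes with a peak was 0.845, and 7 of the 10 members lay above it.

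**Figure D1:**
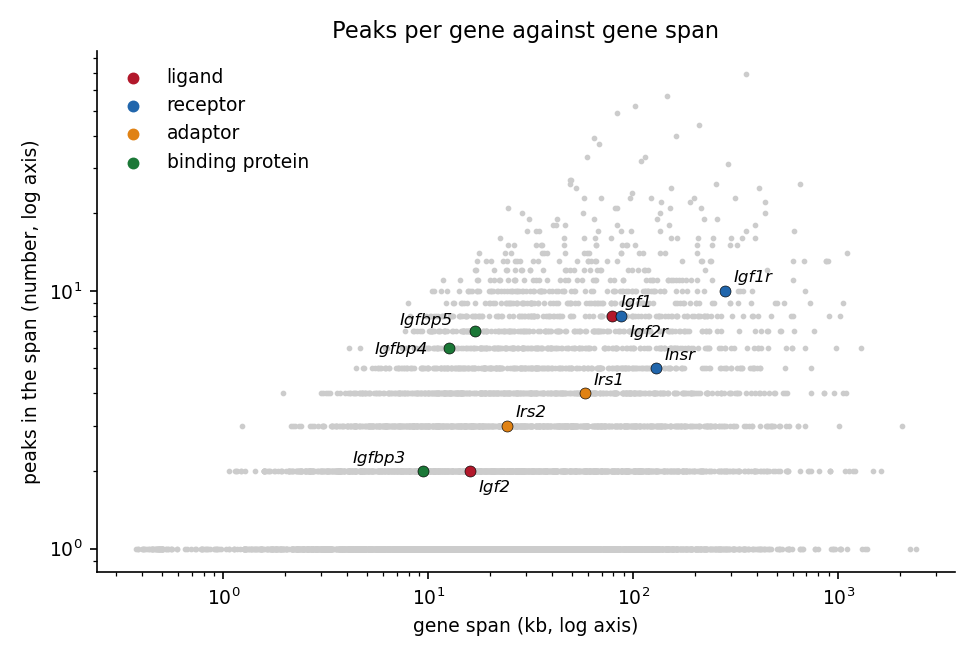
Number of peaks against gene span in kb, both on log axes, for every protein-coding gene with a peak (grey) and the 10 members (coloured by role). Igf1r, with 10 peaks, has the longest span of the members (281.4 kb), while Igfbp4 and Igfbp5 hold 6 and 7 peaks in 12.7 and 16.8 kb.

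The fold enrichment of a peak is the authors' own value: the fragments at the summit plus 1, over the background of the peak caller plus 1. The source of this background, the input library or another, is not given in the sources used here, so a fold enrichment cannot be read as immunoprecipitation over input. Both numbers were worked back from the authors' fold enrichment and p-value. The 95% intervals given with a value are exact Poisson intervals of the fragment number and cover counting error only. Over the 55 peaks the median fold enrichment was 4.63 (interquartile range 3.32 to 6.32, full range 2.12 to 27.9). Over the whole list the median was 5.58 (interquartile range 4.33 to 7.38), and 20 of the 55 peaks lay above it. The members' peaks rested on more fragments, with a median of 34 (9 to 108) beside 22 in the list. Their background was also higher, with a median of 8.32 fragments (0.481 to 37.2) beside 2.63. A high background lets a low fold enrichment enter the list. Each member peak was therefore also set beside the other peaks of the list whose background was within a factor of 1.25, between 131 and 4040 peaks. At like background 25 of the 55 peaks lay above the median.

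**Figure D2:**
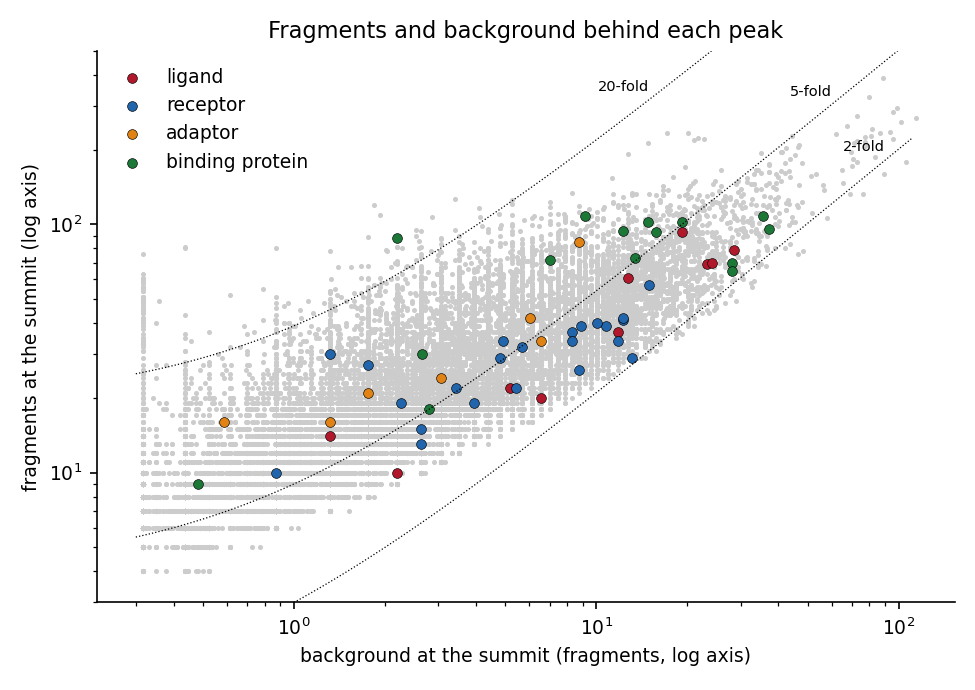
Fragments at the summit against background at the summit, both in fragments on log axes, for all peaks of the list (grey) and the 55 member peaks (coloured by role). Dotted lines mark 2-fold, 5-fold and 20-fold enrichment. The Igf1 and Igf2r peaks, which are not marked apart from others of their roles, lie below the 5-fold line. The first peak of Igfbp4 lies above the 20-fold line.

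The ligands had the lowest median fold enrichment of the roles. Their 10 peaks had a median of 3.21 (2.72 to 6.48), at a median of 33.2% of the peaks of like background. This rested mostly on Igf1, with 8 of the 10 peaks and a median of 2.93. The 2 peaks of Igf2 had a median of 4.97, above the 4.04 of the receptors. Igf1 (NCBI gene 16000; chromosome 10, 87858265 to 87937047) held 8 peaks. In order along the transcript their fold enrichments were 2.89, 2.96, 4.53, 2.78, 3.73, 4.64, 2.72 and 2.83. The fragments behind them were 69, 37, 61, 20, 22, 93, 79 and 70. Their backgrounds ran from 5.17 to 28.5 fragments. At like background the third and the sixth peak lay above 71.0% and 79.8% of the other peaks, and the remaining 6 above 4.13% to 34.9%. Its highest peak (87930554 to 87930890) stood at 4.64 (95% interval 3.75 to 5.67), and only 17.9% of all genes with a peak had a lower highest peak. The summits lay between 8.19% and 99.2% of the span, and 3 of them lay in its last 10%. None of the 8 lay within 1000 bases of the listed start; the nearest was 3607 bases downstream.

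Igf2 (NCBI gene 16002; chromosome 7, 142650768 to 142666816) is an imprinted gene that is active in fetal growth. It held 2 peaks, on 14 and 10 fragments over backgrounds of 1.31 and 2.19, and its median of 12 fragments was the lowest of the members. The fold enrichments were 6.48 (3.74 to 10.6; 142653773 to 142654070) and 3.45 (1.82 to 6.08; 142650961 to 142651253), and these intervals overlapped. Both summits lay in the part of the span near its end, at 80.1% and 98.7%, past all 4 listed starts of the gene. The nearest start lay 3540 bases upstream of the higher one. The antisense gene Igf2os and the microRNA gene Mir483, which overlap Igf2, held 0 summits. H19, the imprinted non-coding RNA gene next to Igf2, held 1 peak of 4.47 (2.95 to 6.52) on 25 fragments. With 10 and 14 fragments, the intervals of the Igf2 peaks were wide, and neither passed a −log10 q of 10.

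The receptors differed among themselves. Igf1r (NCBI gene 16001; chromosome 7, 67952257 to 68233668) held 10 peaks, with fold enrichments along the transcript of 13.4, 5.93, 5.19, 4.05, 4.41, 4.93, 10.2, 5.87, 5.16 and 3.58. The highest, at 13.4 (9.18 to 18.9), had 30 fragments against a background of 1.31 and lay higher than 94.5% of the peaks of like background. It is the peak that begins before the listed start (67952027 to 67952774), with its summit 328 bases after it. The second highest, at 10.2 (6.83 to 14.6; 68169724 to 68169951), lay 217618 bases downstream, and its interval overlapped that of the first. The other 8 lay between 3.58 and 5.93. Among genes with a peak, 92.2% had a lower highest peak than Igf1r and 95.5% had fewer peaks. The lncRNA genes Gm51487 and Gm51488 inside its span held 0 of the summits.

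Insr (NCBI gene 16337; chromosome 8, 3150922 to 3279649) held 5 peaks. From the lower to the higher coordinate their fold enrichments were 2.77, 6.14, 2.12, 3.70 and 3.86, on 26, 19, 29, 40 and 13 fragments. The highest (3204701 to 3204935) had an interval of 3.82 to 9.41. The value of 2.12 was the lowest of all 55 peaks and lay above only 1.07% of the peaks of like background. None of the 5 passed a −log10 q of 10. Igf1r and Insr encode closely related kinases. The interval of the highest peak of Igf1r (9.18 to 18.9) overlapped that of Insr (3.82 to 9.41) at its edge, and the difference between both was not tested.

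Igf2r (NCBI gene 16004; chromosome 17, 12682406 to 12769706) held 8 peaks of low and even enrichment. Along the transcript the fold enrichments were 3.65, 2.73, 4.04, 3.24, 3.40, 3.76, 3.17 and 4.08, and the fragments were 57, 34, 39, 42, 39, 34, 41 and 37. The highest, 4.08 (2.90 to 5.58; 12697466 to 12697666), was the lowest highest peak of the members, and 11.1% of all genes with a peak had a lower one. All 8 intervals overlapped each other. The first summit lay 677 bases after the start, at 0.775% of the span, and 7 of the 8 lay in the first 29.7%.

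Those 7 summits also lay in the span of Airn (chromosome 17, 12741311 to 12859884). Airn is a long non-coding RNA that starts inside Igf2r, runs in the opposite direction over the Igf2r start and silences Igf2r on the paternal chromosome. The list gives no strand, so fragments of Airn and of Igf2r cannot be told apart in the shared stretch. Past the start of Igf2r, where only the Airn span lies, Airn held 6 more peaks. Their fold enrichments were 2.81, 4.83, 3.18, 4.75, 3.57 and 8.60, in order away from Igf2r. The first 5 rested on 25, 44, 25, 33 and 37 fragments over backgrounds of 6.15 to 9.63, and the last on 14 over 0.744. The 7 shared peaks ran from 2.73 to 4.04 on 34 to 57 fragments over backgrounds of 8.32 to 14.9. The peak nearest to Igf2r (12769671 to 12769932), at 2.81 (1.86 to 4.10), is the one over the sequence printed for Igf2r. Only 1 peak, the highest, lay in Igf2r outside Airn, 72180 bases after the start.

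**Figure D3:**
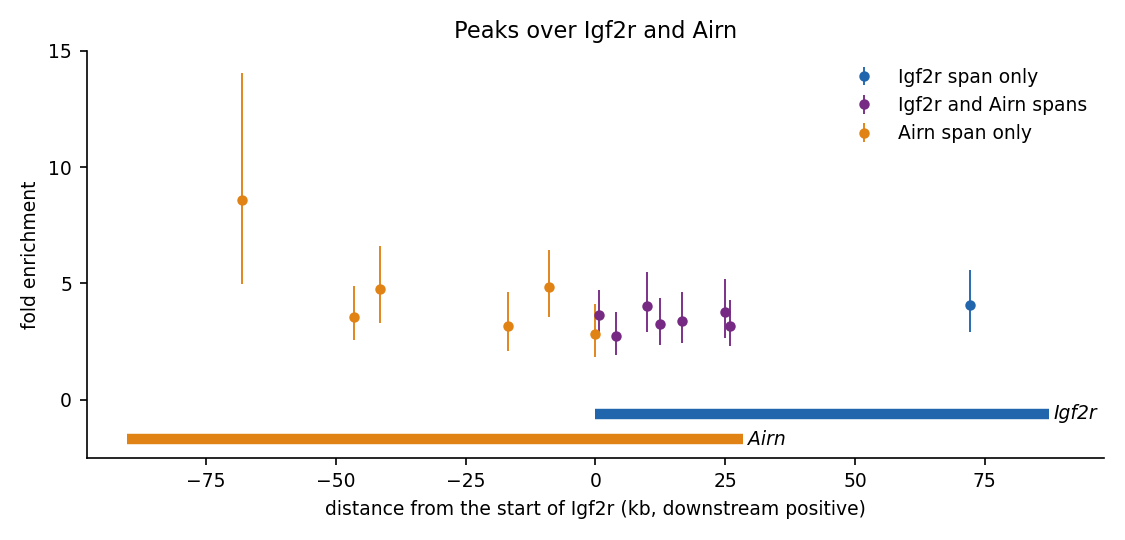
Fold enrichment of each peak with its 95% interval (counting error) against distance from the Igf2r start in kb, positive downstream in Igf2r. The bars under the points show the spans of Igf2r and Airn. In all, 7 peaks lie in both spans, 6 in Airn alone and 1 in Igf2r alone, and all but the farthest Airn peak lie below 5-fold.

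Both adaptors held wide peaks in the first 14.4% of the span, all 3 in Irs2 and the first in Irs1. Irs1 and Irs2 proteins are docking platforms whose coding sequence lies almost wholly in a single large exon of each gene. The widths of their 7 peaks had a median of 822 bp, beside 315.5 bp in the list. Irs1 (NCBI gene 16367; chromosome 1, 82233105 to 82291439) held 4 peaks with fold enrichments along the transcript of 8.82, 6.11, 6.15 and 4.63 on 85, 42, 24 and 34 fragments. The first was 3532 bp wide (82287498 to 82291029), and 17 of the 21192 peaks in the list were wider. At 8.82 (7.06 to 10.9) it lay higher than 95.5% of the peaks of like background. It was followed after 189 bp by the second peak, and its summit lay 1904 bases after the start. The second to the fourth peak were 512, 224 and 341 bp wide, and the last 2 lay at 63.4% and 92.4% of the span.

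Irs2 (NCBI gene 384783; chromosome 8, 10984681 to 11008929) held its 3 peaks within 3935 bp, in the first 14.4% of the span. Along the transcript the fold enrichments were 8.0 (5.09 to 12), 7.35 (4.39 to 11.7) and 10.7 (6.39 to 17.0), with overlapping intervals, on 21, 16 and 16 fragments. The peaks were 999, 822 and 1672 bp wide, with gaps of 130 and 312 bp between them. No Irs2 peak lay farther along, where Irs1 held 2. The first of the 3 (11007461 to 11008459) had its summit 885 bases after the start and also in the lncRNA gene 9530052E02Rik. The backgrounds of Irs2 (0.587 to 1.75 fragments) lay below those of Irs1 (3.06 to 8.75). The highest fold enrichments of both adaptors had overlapping intervals.

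The binding proteins held 15 peaks on a median of 88 fragments, beside 49 for the ligands, 30 for the receptors and 24 for the adaptors. This rested on Igfbp4 and Igfbp5, with medians of 90.5 and 94 fragments, while that of Igfbp3 was 19.5. Igfbp4 (NCBI gene 16010; chromosome 11, 99040005 to 99052655) encodes a binding protein that mostly restrains IGF action and is cut by the protease PAPP-A. It held 6 peaks, with fold enrichments along the transcript of 27.9, 5.0, 9.12, 10.7, 5.61 and 2.54. The fragments were 88, 18, 72, 108, 93 and 96. The background rose along the gene, from 2.19 and 2.80 to 7.0, 9.19, 15.8 and 37.2 fragments. The first and the last peak thus rested on similar numbers of fragments over very different backgrounds.

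The first peak of Igfbp4 (99041270 to 99042017) stood at 27.9 (22.4 to 34.3), with its summit 215 bases after the start. It was the highest of the 55 peaks and 2.61 times the next in the gene. Its interval lay above those of the highest peaks of the other 9 members. At like background, 99.9% of 4040 peaks were lower, and 99.7% of all genes with a peak had a lower highest peak. The fourth peak (99048923 to 99049181), at 10.7 (8.79 to 12.9) on 108 fragments, lay above 98.8% of the peaks of like background.

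Igfbp5 (NCBI gene 16011; chromosome 1, 72858065 to 72874865) encodes a binding protein that also attaches to the extracellular matrix. It held 7 peaks, on 65 to 108 fragments each. Along the transcript the fold enrichments were 5.08, 7.17, 5.12, 6.52, 2.27, 2.43 and 2.99, over backgrounds of 19.3, 12.3, 13.5, 14.8, 28.1, 28.2 and 35.5 fragments. The 3 peaks nearest the end had the lowest fold enrichments and the highest backgrounds, and their intervals lay below those of the other 4. The first peak (72873775 to 72874731) was 957 bp wide, with its summit 679 bases after the start. The highest (72863809 to 72864247) stood at 7.17 (5.81 to 8.75), above 95.4% of the peaks of like background.

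Igfbp3 (NCBI gene 16009; chromosome 11, 7206086 to 7215498) encodes the main carrier of IGFs in serum. It held 2 peaks. The first (7213449 to 7213922), with its summit 156 bases after the start, stood at 6.75 (3.45 to 12.2) on 9 fragments, the fewest of the 55. The second (7210094 to 7210311) stood at 8.49 (5.82 to 12) on 30 fragments. Their intervals overlapped.

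**Figure D4:**
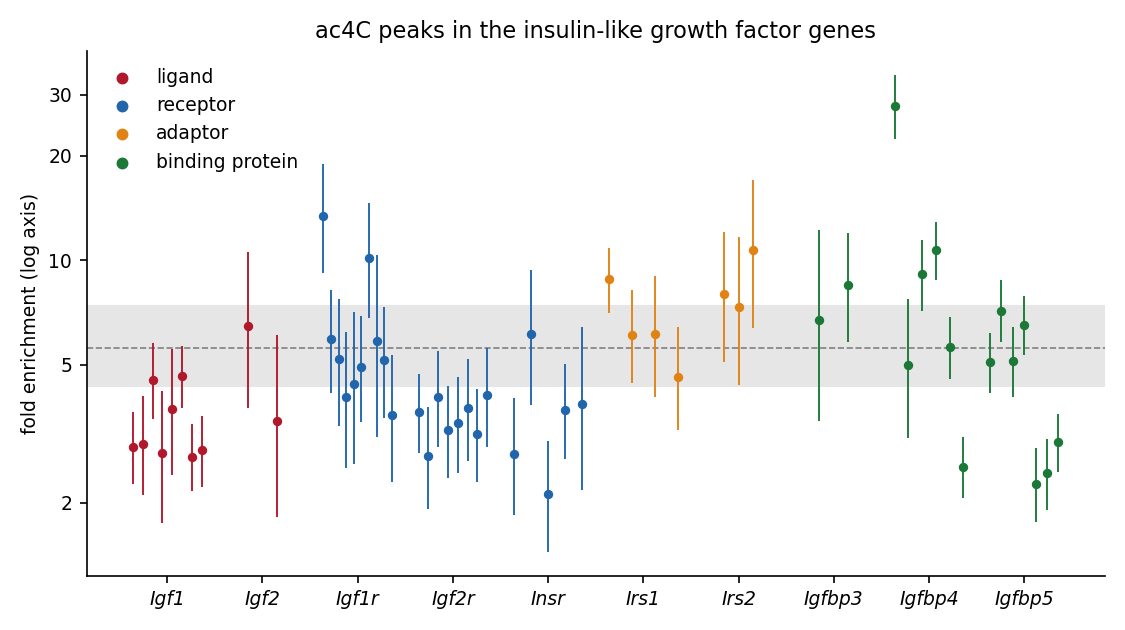
Fold enrichment (log axis) of each of the 55 peaks with its 95% interval (counting error of the immunoprecipitation), by gene in order along the transcript (Insr: from the lower coordinate), coloured by role. The grey band and dashed line are the interquartile range and median of all 21192 peaks. The Igf1 and Igf2r peaks lie mostly below the band, and the first peak of Igfbp4 stands at 27.9.

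Set side by side, the median fold enrichment was 3.21 for the peaks of the ligands (10 peaks), 4.04 for the receptors (23), 7.35 for the adaptors (7) and 5.61 for the binding proteins (15). The median share of lower peaks at like background was 33.2%, 35.1%, 71.1% and 82.7%. These are descriptions, since peaks of a gene share its transcript and each role holds 2 or 3 genes. By highest peak, the members ran from Igfbp4 (27.9) through Igf1r (13.4), Irs2 (10.7), Irs1 (8.82), Igfbp3 (8.49), Igfbp5 (7.17), Igf2 (6.48) and Insr (6.14) to Igf1 (4.64) and Igf2r (4.08). Neighbours in this order had overlapping intervals, except Igfbp4 and Igf1r. The intervals of Igf1 and of Igf2r each lay below those of 6 other members. This order does not take background into account. At like background the highest peak of Igf1 lay above 79.8% of the other peaks. Those of Insr, Igf2 and Igf2r lay above 53.2%, 49.4% and 43.3%. The median of the 10 highest peaks was 7.83, beside 6.61 over all genes with a peak (interquartile range 5.05 to 9.06), and 6 of the 10 lay above it.

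Near the start, 6 of the 9 members with a listed start had a summit within 1000 bases downstream of it. They were Igf1r, Igf2r, Irs2 and all 3 binding proteins. Of all 5351 genes with a peak and a listed start, 32.9% did, a comparison that was not planned in advance. Peak number was not matched in this share: the members had a median of 5.5 peaks a gene, beside 2 over all genes with a peak. For Igf2r and Irs2 the summit near the start also lay in a lncRNA gene. The start-proximal peak was the highest of the gene in Igf1r and Igfbp4, so in 2 of 9 members, beside 21.3% of genes. Neither ligand had such a summit. Of the 50 peaks in these 9 members, 9 lay in the first 10% of the span and 10 in the last 10%. The spans of Igf1, Igfbp3 and Igfbp4 begin before the listed start. The first summits of Igfbp3 and Igfbp4 thus lay at 18.4% and 11.5% of the span. With 500 bases in place of 1000 the number of members was 3 (Igf1r, Igfbp3 and Igfbp4), and with 2000 bases it was 7. At 1000 bases without peaks wider than 631 bp it was 2. The share over all genes was not computed for these settings. Exons were not used here, so coding sequence, untranslated regions and introns were not told apart.

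**Figure D5:**
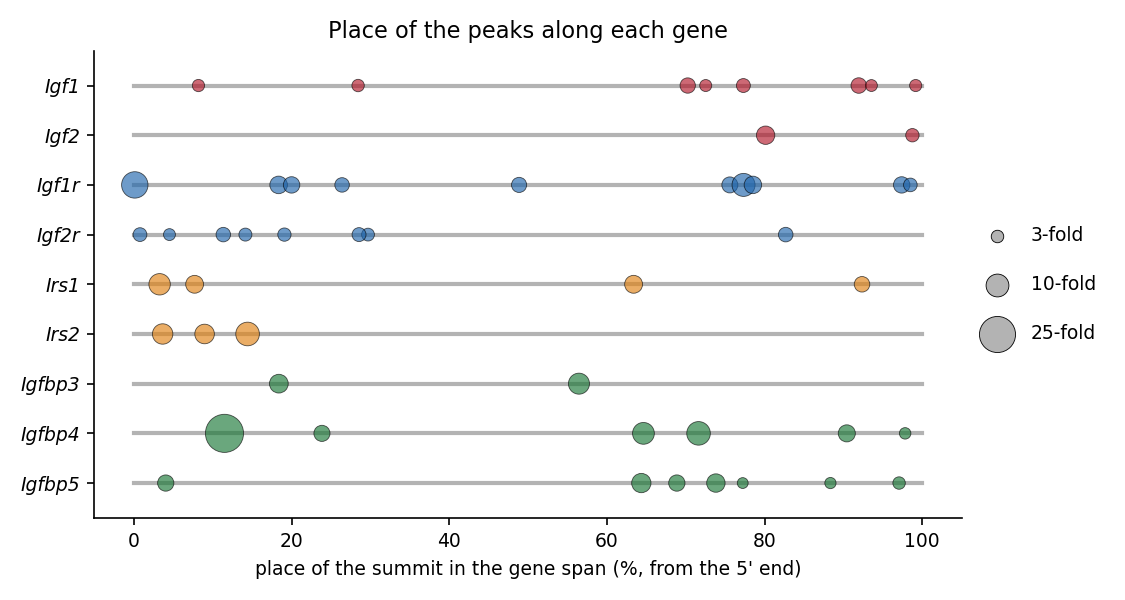
Place of each summit in the gene span, as a percentage from the 5′ end, for the 9 members with a listed strand. The area of a circle is proportional to fold enrichment and the colour gives the role. Igf1r has its largest circle at the 5′ end. That of Igfbp4 lies at 11.5%, as the span of this gene begins before its listed start. The 3 Irs2 peaks lie in the first 14.4%, and both Igf2 peaks lie beyond 80%.

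Other genes of the pathway were taken from 7 lists with 59 genes. A peak was found in 38 of them (64.4%), beside 30.6% of all protein-coding genes. Their median highest fold enrichment was 6.80, beside 6.61 over all genes with a peak. Neither abundance nor gene span was matched, and the lists were chosen with earlier results of these data known. Of the insulin genes and other relatives of the receptor and adaptors, Ins1, Ins2, Insrr, Irs3 and Irs4, 0 of 5 held a peak. Among the other binding proteins and their carrier, Igfbp7 held 6 peaks and Igfbp6 held 1, while Igfbp1, Igfbp2 and Igfals held none. Igfbp7, a relative with low affinity for IGFs, had its highest peak (chromosome 5, 77407431 to 77408014) at 15.8 (12.7 to 19.5) on 86 fragments, 327 bases after its start. Igfbp6, which prefers IGF2, stood at 3.07 (2.43 to 3.83) on 76 fragments. Thus 5 of the 7 genes Igfbp1 to Igfbp7 held a peak, and in Igfbp4 and Igfbp7 the highest lay within 1000 bases of the start.

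Among proteases that cut binding proteins and their inhibitors, 3 of 5 held a peak. Htra1, a secreted serine protease, had a single peak of 11.1 (6.53 to 17.9), 172 bases after the start. Pappa, the protease that cuts IGFBP4, stood at 4.96 (2.37 to 9.56) and its inhibitor Stc2 at 4.87 (2.23 to 9.78), on 7 and 6 fragments. Pappa2 and Stc1 held none. Of the mRNA-binding proteins named for Igf2, Igf2bp2 held 1 peak of 5.19 (2.81 to 8.94), and Igf2bp1 and Igf2bp3 held none.

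Downstream of the receptors, 7 of 10 other adaptors held a peak. The highest were Gab1, a docking protein, at 10.8 (7.0 to 16.0), the phosphatase gene Ptpn1 at 7.32 (4.22 to 11.9) and the Ras exchange factor gene Sos1 at 7.29 (5.14 to 10.1). Grb10, Grb14 and Crk held none. In the PI3K, Akt and mTOR arm 19 of 22 genes held a peak, 67 in all. The highest were the kinase gene Gsk3b at 14.7 (11.7 to 18.3) and the transcription factor gene Foxo3 at 14.7 (11.4 to 18.6). Pik3cb, Rictor and Rps6kb1 held none. In the Ras and MAPK arm 6 of 9 genes held a peak, led by Map2k2 at 9.10 (6.45 to 12.5), Map2k1 at 7.64 (4.41 to 12.5) and Mapk3 at 7.61 (4.99 to 11.2), which are kinases of the cascade. A gene with no peak was not detected as enriched at this depth, and its transcript level was not measured here.

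Marker genes were checked in the same way against the label whole uterus. A peak was held by 4 of 5 markers of uterine epithelium, 5 of 5 of stroma, 5 of 5 of smooth muscle, 3 of 3 of endothelium and 1 of 3 of immune cells, beside 30.6% of all protein-coding genes. Of liver markers 0 of 3 held a peak and of ovary markers 2 of 3 (Inha and Amh, on 7 and 6 fragments). In a tissue of several cell types, fewer cells with a transcript and less of it per cell cannot be told apart. Nor can either be told from a transcript that is present but not enriched, as transcript levels were not measured here.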

How the data were processed

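Both libraries, 1 ac4C immunoprecipitation and 1 input control, were grouped by their titles. The data used were 1 narrowPeak list of 21192 peaks. Fold enrichments (a ratio), −log10 p and −log10 q values and a score were deposited by the authors. HISAT2 2.2.1, MACS3 3.0.0a7 and the build mm10 are named per the submitters' processing notes, without their roles. Other settings are not given in the sources used here. The largest q in the deposited list was 0.0499, and strand was given for 0 peaks.

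Genes, spans and start windows came from RefSeq tables of GRCm38.p6. No exon positions or genome were used here. For each of the 21192 peaks a single whole fragment number at its summit gave both the fold enrichment (pseudocount 1) and the Poisson p-value. The −log10 p was missed by at most 8.58e-06 of its value. Fold enrichments and p-values were also simulated with the same formula from recovered numbers, and the right number came back in 100% of 2000 peaks. This checks only that the formula can be inverted, not that the numbers are those of the authors. Library totals were not used here. Intervals are 95% exact Poisson intervals that take the background as known, and PCR copies were not separated. Computations used Python 3.11.15, pandas 2.3.3 and scipy 1.17.1.

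The members and gene lists were chosen with earlier results of these data known. All members are named with all their peaks; lists of at most 5 genes are named in full, and longer ones by their 3 highest genes and those with no peak, except that some genes of these lists are not reported here. With 1 library in each group, no p-values were calculated.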

Additional observations from a re-analysis of the deposited data

How the results depend on the processing

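No paired analysis was possible because each group held 1 library. The share of peaks in exons was not run, nor peaks per kb of exon, as exons were not used here. The count of members with a summit within 1000 bases of a start was not planned in advance. The length of this start zone was varied only after the data were seen.

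A peak was held by 8 members with a −log10 q of at least 10 (without Igf2 and Insr), by 8 with a fold enrichment of at least the list median (without Igf1 and Igf2r) and by 9 with peaks of at most 631 bp (without Irs2). Under the q filter the number of peaks was 30, with 5 in ligands and 8 in receptors. Under the fold filter it was 20, with 1 in ligands, 5 in receptors and 8 in binding proteins, and the median fold enrichment was 7.26. These follow from fewer peaks being kept. The width limit left 3 peaks in adaptors, and gave 6.15 as the highest of Irs1, 10.7 as that of Igfbp4, and 2 members with a summit near a start. With a start zone of 500 bases, and no width limit, that number was 3, and with 2000 bases it was 7. The median of the highest peaks was 7.83. Per 10 kb, the ligands held 1.05 peaks, the receptors 0.462, the adaptors 0.848 and the binding proteins 3.86. Without summits in another gene, 47 peaks were left, 16 of them in receptors. Giving peaks to genes by any overlap added 1 peak, that over the start of Igf2r.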
